A study of Mus musculus with 8 samples.

Results

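Chst12, Ddx28, Trmt12, Riox1, Pif1 and Nynrin are 6 genes of the 17910 in a count table of mouse embryonic fibroblasts. They were picked by name for a large fall with the compound RSL3, or for a large rise when the compound SRT1720 was given ahead of RSL3. All 6 passed the filter on low counts and are among the 12618 genes tested. No numerical limit went with that choice, so the place of each gene among all genes is given with its values. The 6 genes had been grouped under the name of short-lived transcripts. There was no time course and no block of transcription in these samples, so how long any of these mRNAs lasts was not measured, and the genes are named here one by one.

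Poly(A) RNA was sequenced from wild-type mouse embryonic fibroblasts (MEFs), connective tissue cells grown in culture and bought from ATCC, with strand-marking TruSeq libraries. There were 4 groups of 2 libraries: SRT1720 (0.2 µM) given 30 min before RSL3 (1 µM), RSL3 alone (1 µM, 2 h), SRT1720 alone (0.2 µM), and control, all named as 2 h, with no word on a vehicle. RSL3 blocks the glutathione peroxidase GPX4, which detoxifies lipid peroxides in membranes, and is used to start ferroptosis, a cell death by lipid peroxidation. SRT1720 is sold as an activator of the deacetylase SIRT1. All 4 groups are the same wild-type cells, and nothing in the labels tells separate cultures from repeat libraries, so p-values measure only how far these samples differ, and that spread may be technical.

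The 6 genes do not form a pathway. Riox1 encodes a ribosomal oxygenase of the JmjC family, which hydroxylates a histidine of a ribosomal protein and also acts on histone H3. Trmt12 encodes a step in making wybutosine, a modified guanosine beside the anticodon of phenylalanine tRNA that keeps the reading frame. Ddx28 is a DEAD-box helicase of the mitochondrial matrix needed to assemble the large mitochondrial ribosomal subunit. Chst12 is a Golgi sulfotransferase that adds sulfate to chondroitin and dermatan chains. Pif1 is a helicase of the nucleus and mitochondria that unwinds DNA, G-quadruplexes included. Nynrin carries a NYN ribonuclease-like domain and an integrase domain that derives from a retrotransposon. The level of an mRNA is set by how fast it is made and how fast it is degraded, and a stop in synthesis lowers short-lived mRNAs first.

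The start regions of 3 of them are shown because these genes stand for the 3 levels with both compounds described below. Riox1 was at or above control, Ddx28 was between RSL3 and control, and Chst12 was low. With a single time of 2 h, a return after a fall cannot be told from a smaller fall. Each run holds 250 bases before the annotated start and 30 after it, in 5′ to 3′ direction of the gene, from RefSeq on GRCm38.p6. Capitals mark matches to any of 9 short motifs searched on both strands. Riox1 lies at chr12:83950358-83950637 on the plus strand, Ddx28 at chr8:106011457-106011736 on the minus strand and Chst12 at chr5:140505359-140505638 on the plus strand.
Riox1: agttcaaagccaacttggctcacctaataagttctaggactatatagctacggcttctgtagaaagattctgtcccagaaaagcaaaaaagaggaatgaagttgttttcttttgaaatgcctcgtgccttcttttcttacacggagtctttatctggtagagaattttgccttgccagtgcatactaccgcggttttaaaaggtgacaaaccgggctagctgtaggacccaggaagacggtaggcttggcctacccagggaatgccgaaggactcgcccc
Ddx28: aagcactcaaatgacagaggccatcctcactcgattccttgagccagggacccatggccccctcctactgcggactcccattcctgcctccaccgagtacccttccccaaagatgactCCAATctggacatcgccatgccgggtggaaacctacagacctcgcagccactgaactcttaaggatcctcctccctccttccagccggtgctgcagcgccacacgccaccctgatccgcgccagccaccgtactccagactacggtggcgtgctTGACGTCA
Chst12: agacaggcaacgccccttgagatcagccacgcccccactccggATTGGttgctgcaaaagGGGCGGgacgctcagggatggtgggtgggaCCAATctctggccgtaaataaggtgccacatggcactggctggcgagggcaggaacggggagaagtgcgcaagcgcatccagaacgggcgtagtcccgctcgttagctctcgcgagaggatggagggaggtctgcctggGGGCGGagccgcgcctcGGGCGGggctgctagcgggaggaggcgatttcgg
The Riox1 window held none of the 9 motifs. In the Ddx28 window the capitals are CCAAT (37.41% of 32851 promoters of 300 bases held it) and, beginning at base 23 after the start, the cAMP response element TGACGTCA, which 1.79% of promoters held. The Chst12 window had CCAAT on each strand and 3 copies of the GC box GGGCGG (35.66% of promoters), and that of Nynrin had 2 GC boxes. The remaining motifs had no match in these 4 promoters: the FOXO site TGTTTAC (3.65%), the amino acid response element TGATGCAA (0.89%), the antioxidant response element TGACNNNGC (12.39%), the TATA box TATAAA (13.62%), the E-box CACGTG (7.15%) and the heat shock element (0.6%). No motif was present in all 4 promoters, and a match in letters is a description, not a site in use. The GC content of the 300 bases was 47.3% for Riox1 and between 60.7% (Ddx28) and 69.0% (Nynrin) for the other 3, against a median of 52.7% over all promoters. RefSeq supplied a promoter for 4 of the 6 genes, and Trmt12 and Pif1 were not among them.

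The libraries held 20579122 to 21287620 counts each. All 9 fibroblast markers that were counted were found, and Lum, also listed, was not among the genes counted. The summed level of the 9 was 7599 to 7620 CPM (counts brought to a common total per library) with SRT1720 and RSL3, 8720 to 10286 with RSL3, 6357 to 6762 with SRT1720 and 7144 to 8629 in control. It came mainly from Col1a1 (1780 to 3056 CPM), Vim (2273 to 3302) and Fn1 (1569 to 3165), while Postn (1.72 to 9.59) and Pdgfra (6.46 to 11.1) were low. Macrophage markers summed to 11.4 to 13.0, 11.6 to 16.0, 6.53 to 7.12 and 3.54 to 4.85 CPM in the same order of groups. Ptprc, which marks white blood cells, was at most 0.0882 CPM. Endothelial markers summed to 9.15 to 9.97, 3.74 to 4.84, 4.48 to 4.76 and 1.503 to 2.23 CPM, and epithelial markers stayed at or under 1.01 CPM. The macrophage and endothelial sums were thus higher in each treated group than in control, and their part in the results was not tested. In bulk RNA, fewer cells of a kind and less RNA per cell cannot be told apart.

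With RSL3 alone all 6 genes were far below control, at 10.0% to 24.5% of the control level, and SRT1720 given first left them in different places. Riox1 was at or above control, Trmt12 and Ddx28 were between RSL3 and control, and Chst12, Pif1 and Nynrin were near the RSL3 level. Levels are CPM after TMM scaling, which adjusts for the composition of each library, and are given for libraries 1 and 2 of a group and as mean ± SD (n = 2). Log2 fold changes are given ± SE. The comparisons of RSL3 with control and of SRT1720 plus RSL3 with RSL3 were used to choose the genes, so the values in them are a description and carry no test.

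**Figure D1:**
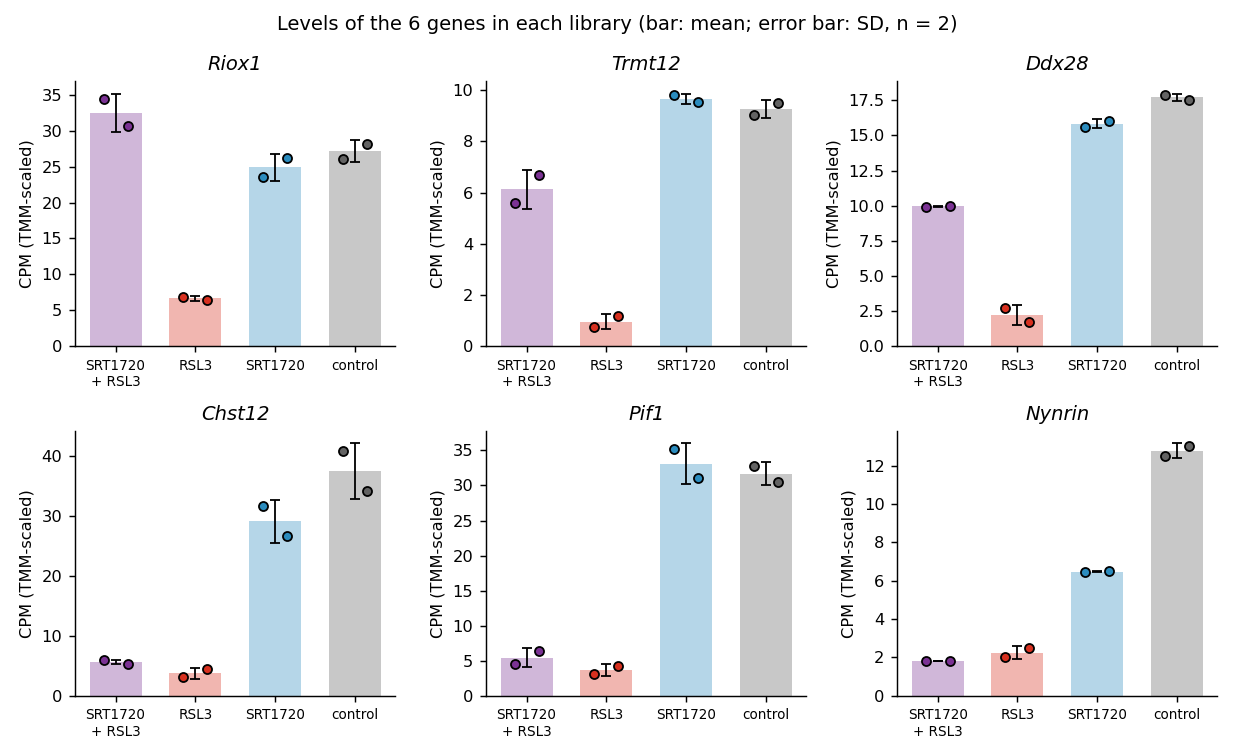
Level of each of the 6 genes in CPM after TMM scaling (vertical axis, a separate linear scale from 0 for each gene) in cells given SRT1720 plus RSL3, RSL3 or SRT1720 and in control. Points are libraries, bars means and error bars SD (n = 2). The RSL3 bars are low for all 6 genes, and the bars for both compounds stand high for Riox1 (32.5 CPM), at an intermediate height for Trmt12 (6.13) and Ddx28 (9.94), and low for Chst12 (5.62), Pif1 (5.45) and Nynrin (1.81).

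Riox1 (NCBI Gene ID 71952, mouse chromosome 12), the ribosomal oxygenase gene, had 34.4 and 30.6 CPM with SRT1720 and RSL3, 6.89 and 6.43 CPM with RSL3, 23.6 and 26.2 CPM with SRT1720, and 26.05 and 28.2 CPM in control. After TMM scaling both libraries with both compounds were above every other library, and both RSL3 libraries were below every other one. Means were 32.5 ± 2.67, 6.66 ± 0.322, 24.9 ± 1.84 and 27.1 ± 1.53 CPM in that order. The log2 difference was -2.03 ± 0.13 for RSL3 against control, the mildest of the 6, and 2.29 ± 0.13 for SRT1720 plus RSL3 against RSL3, which is 4.88-fold. Against control, cells with both compounds stood at 119.8% (log2 0.26 ± 0.11). This excess depends on the scaling. In counts before scaling, Riox1 had 690 and 606 with both compounds and 607 and 638 in control. With library size only, the log2 difference of RSL3 against control was -2.31.

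Trmt12 (68260, chromosome 15), which encodes the wybutosine enzyme, had 5.58 and 6.67 CPM with SRT1720 and RSL3, 0.736 and 1.16 CPM with RSL3, 9.81 and 9.53 CPM with SRT1720, and 9.01 and 9.51 CPM in control. The RSL3 libraries were the lowest, the libraries with both compounds came next, and those without RSL3 were the highest. The RSL3 values rest on only 14 and 22 counts. Means were 6.13 ± 0.768, 0.948 ± 0.300, 9.67 ± 0.198 and 9.26 ± 0.350 CPM in the same order. The log2 difference was -3.28 ± 0.23 (10.2%) for RSL3 against control and 2.69 ± 0.24 (6.47-fold) for SRT1720 plus RSL3 against RSL3, the largest such difference of the 6. Cells with both compounds stood at 66.2% of control (-0.60 ± 0.18).

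Ddx28 (71986, chromosome 8), the mitochondrial helicase gene, had 9.92 and 9.96 CPM with SRT1720 and RSL3, 2.73 and 1.74 CPM with RSL3, 15.6 and 16.1 CPM with SRT1720, and 17.9 and 17.5 CPM in control. No 2 groups overlapped. Means were 9.94 ± 0.0230, 2.24 ± 0.703, 15.8 ± 0.301 and 17.7 ± 0.272 CPM. The log2 difference was -2.98 ± 0.19 for RSL3 against control and 2.15 ± 0.19 (4.44-fold) for SRT1720 plus RSL3 against RSL3, and cells with both compounds stood at 56.1% of control (-0.83 ± 0.16).

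Chst12 (59031, chromosome 5), the chondroitin sulfotransferase gene, had 5.88 and 5.36 CPM with SRT1720 and RSL3, 3.10 and 4.43 CPM with RSL3, 31.7 and 26.6 CPM with SRT1720, and 40.7 and 34.2 CPM in control. The 4 libraries with RSL3 were all under 6 CPM and the 4 without it all above 26 CPM. Means were 5.62 ± 0.373, 3.76 ± 0.938, 29.1 ± 3.58 and 37.5 ± 4.63 CPM. This was the lowest of the 6 in RSL3 relative to control, at -3.31 ± 0.19 log2 units, or 10.0%. SRT1720 plus RSL3 differed from RSL3 by 0.58 ± 0.21 (1.49-fold), and from control by -2.74 ± 0.18 (15.01%).

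Pif1 (208084, chromosome 9), the G-quadruplex helicase gene, had 4.54 and 6.37 CPM with SRT1720 and RSL3, 3.05 and 4.22 CPM with RSL3, 35.2 and 31.1 CPM with SRT1720, and 32.8 and 30.6 CPM in control. Its libraries fell into the same 2 sets as those of Chst12, with RSL3 and without it. Means were 5.45 ± 1.29, 3.63 ± 0.826, 33.1 ± 2.90 and 31.7 ± 1.61 CPM. The log2 difference was -3.12 ± 0.19 (11.5%) for RSL3 against control, 0.58 ± 0.21 (1.501-fold) for SRT1720 plus RSL3 against RSL3, and -2.54 ± 0.18 (17.2%) for SRT1720 plus RSL3 against control.

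Nynrin (277154, chromosome 14), the gene with a retrotransposon-derived domain, had 1.795 and 1.82 CPM with SRT1720 and RSL3, 2.00 and 2.48 CPM with RSL3, 6.45 and 6.48 CPM with SRT1720, and 12.5 and 13.0 CPM in control. It was the member of the 6 in which SRT1720 alone took the libraries well below control, and in which both compounds together gave the lowest values. Means were 1.81 ± 0.0171, 2.24 ± 0.339, 6.47 ± 0.0248 and 12.8 ± 0.393 CPM. The log2 difference was -2.51 ± 0.18 (17.5%) for RSL3 against control, -0.31 ± 0.21 (80.8%) for SRT1720 plus RSL3 against RSL3, and -2.82 ± 0.18 (14.2%) for SRT1720 plus RSL3 against control.

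Ranked among the 12618 genes tested from the largest fall with RSL3, Chst12 was number 25, Trmt12 26, Pif1 29, Ddx28 35, Nynrin 52 and Riox1 114. From the largest rise with SRT1720 plus RSL3 against RSL3, Trmt12 was number 28, Riox1 49 and Ddx28 66, while Pif1 was 1341, Chst12 1361 and Nynrin 9956. All 6 had both RSL3 libraries below both control libraries, as did 31.6% of all genes tested, and 5 of 6 had both libraries with both compounds above both RSL3 libraries, as did 30.3%. Nynrin had them below, as did 29.3%. Nothing is read from these counts, since both comparisons chose the genes.

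The share of the RSL3 fall that was absent with SRT1720 plus RSL3 was computed on the CPM scale as the difference between SRT1720 plus RSL3 and RSL3 over the difference between control and RSL3. It was 126.3% for Riox1, 62.3% for Trmt12, 49.8% for Ddx28, 6.49% for Pif1, 5.51% for Chst12 and -4.08% for Nynrin. Over the 8 ways of taking a library from each of the 3 groups it ran from 111% to 144% for Riox1, 53.0% to 71.7% for Trmt12 and 47.4% to 52.1% for Ddx28, and from 1.12% to 12.1%, 2.56% to 8.95% and -6.81% to -1.61% for Pif1, Chst12 and Nynrin. The ranges of the first 3 genes overlapped none of those of the last 3, and those of Pif1 and Chst12 overlapped each other. Both comparisons behind this share chose the genes, so the split is a description and nothing is read from it. On the log2 scale the shares were 112.9%, 81.9%, 72.1%, 18.7%, 17.4% and -12.2% in the same order of genes. The effect of SRT1720 with RSL3 minus its effect without RSL3 was 2.62 ± 0.30 for Trmt12, 2.41 ± 0.17 for Riox1, 2.31 ± 0.25 for Ddx28, 0.94 ± 0.26 for Chst12, 0.67 ± 0.26 for Nynrin and 0.52 ± 0.27 for Pif1 on the log2 scale, as a description.

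**Figure D2:**
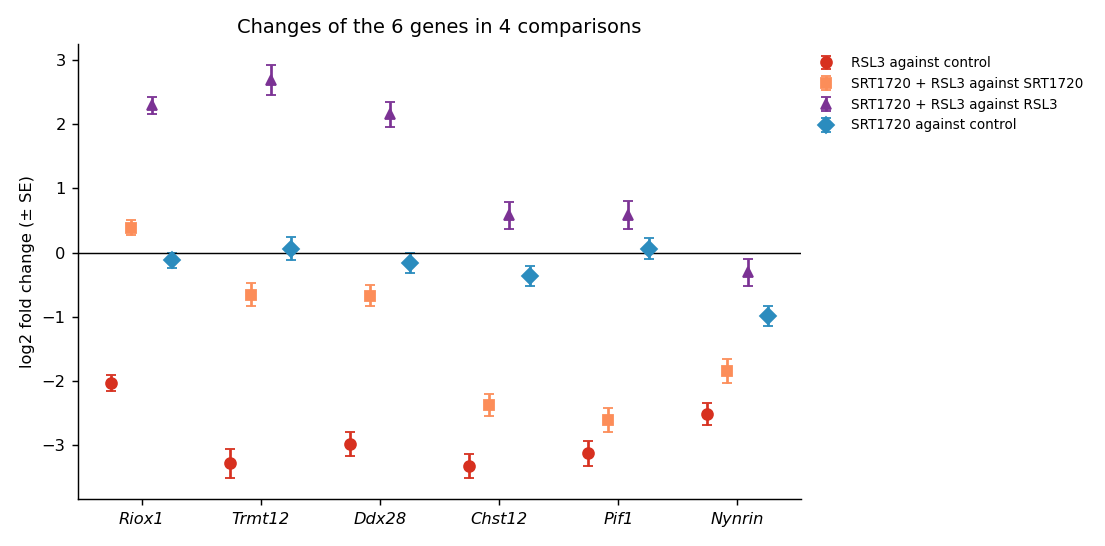
Log2 fold change ± SE (vertical axis) of each of the 6 genes in 4 comparisons, with the first-named group over the second. The triangles of SRT1720 plus RSL3 against RSL3 stand above 2 for Riox1, Trmt12 and Ddx28 and under 1 for Chst12, Pif1 and Nynrin. Among the diamonds of SRT1720 against control, that of Nynrin lies lowest, at -0.98.

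The comparison of SRT1720 with control was not used to choose the genes, although its control libraries are those of the RSL3 comparison. In this comparison 1 of the 6 genes passed the test and was lower, where 0.206% of all genes were called lower, 1.1% higher and 1.31% either way (edgeR quasi-likelihood, Benjamini-Hochberg over 12618 genes, threshold 0.05). Nynrin fell to 6.47 ± 0.0248 CPM with SRT1720, against 12.8 ± 0.393 CPM in control (-0.98 ± 0.16, edgeR adjusted p = 0.0176, lower in 2 of 2 libraries). The adjusted p ran from 0.00425 to 0.243 over the 16 alternative settings, and the call ended when control 2 (adjusted p = 0.114 in edgeR), SRT1720 1 (0.243), SRT1720 2 (0.191), SRT1720 plus RSL3 1 (0.0584) or SRT1720 plus RSL3 2 (0.0539) was left out. The log2 change stayed between -0.99 and -0.95 in those 5 fits. Chst12 was at 77.8% of control (-0.36 ± 0.15, 95% interval -0.71 to -0.02, adjusted p = 0.347 in edgeR) with both SRT1720 libraries below both control libraries, as for Nynrin and Ddx28 and for 23.1% of all genes. Ddx28 differed by -0.16 (interval -0.50 to 0.18, edgeR adjusted p = 0.702), Riox1 by -0.12 (-0.38 to 0.13, adjusted p = 0.693), Trmt12 by 0.06 (-0.33 to 0.45, adjusted p = 0.904, both libraries above both of control, as for 24.8% of genes) and Pif1 by 0.06 (-0.29 to 0.42, adjusted p = 0.896). For these 5 genes a difference from control was not called, and the SRT1720 and control libraries of Riox1 and Pif1 overlapped.

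The comparison of SRT1720 plus RSL3 with SRT1720 asks what RSL3 did in cells that had SRT1720. It shares its SRT1720 plus RSL3 libraries with a comparison that chose the genes. All 6 genes passed the test, 5 lower and 1 higher, where 9.06% of all genes were called lower and 12.3% higher (21.3% either way). In each of the 6 the libraries of these groups did not overlap, and over all genes that held for 34.2% lower and 33.6% higher. On the log2 scale Pif1 fell by 2.60 ± 0.18 with both compounds against SRT1720 (edgeR adjusted p = 1.68e-05), Chst12 fell by 2.37 ± 0.18 (edgeR adjusted p = 2.46e-05) and Nynrin fell by 1.84 ± 0.19 (edgeR adjusted p = 0.00016), each below in 2 of 2 libraries and called in 16 of 16 alternative settings. These 3 genes were thus low with RSL3 whether or not SRT1720 was there.

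The other 3 calls were less firm. Ddx28 fell to 62.7% of the SRT1720 level (-0.67 ± 0.16, edgeR adjusted p = 0.0149), with a range of 0.000381 to 0.0999 over the alternatives. Its call ended without SRT1720 1 (0.0903), SRT1720 2 (0.097), SRT1720 plus RSL3 1 (0.0969) or SRT1720 plus RSL3 2 (0.0999), with the log2 change between -0.69 and -0.65. Trmt12 fell to 63.4% (-0.66 ± 0.18, edgeR adjusted p = 0.0271, range 0.00254 to 0.19), and the call ended with DESeq2 and when any of those same 4 libraries was left out (0.153, 0.118, 0.19 and 0.0795, log2 changes of -0.79 to -0.54). Riox1 rose to 130.6% of the SRT1720 level (0.38 ± 0.12, edgeR adjusted p = 0.0397, range 0.00956 to 0.259). That call ended in 10 of 16 alternatives. It ended with DESeq2, with library size only (log2 0.179, edgeR adjusted p = 0.259), with no filter on low counts and with a replicate block (edgeR adjusted p = 0.0516). It also ended without control 1 (log2 0.384), control 2 (0.385), SRT1720 1 (0.312), SRT1720 2 (0.461), SRT1720 plus RSL3 1 (0.295) or SRT1720 plus RSL3 2 (0.467).

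Per kilobase of transcript, which makes levels comparable between genes, the 6 genes ran from the low to the upper middle range of tested genes. In control cells Chst12 had 16.1 CPM per kilobase, Riox1 11.6, Pif1 8.60, Ddx28 7.83, Trmt12 2.08 and Nynrin 1.70. The share of tested genes below these levels was 66.4%, 58.3%, 51.1%, 49.0%, 24.7% and 22.4% in the same order. In RSL3 the order was another: Riox1 had 2.84 CPM per kilobase, Chst12 1.61, Ddx28 0.989, Pif1 0.986, Nynrin 0.298 and Trmt12 0.213.

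The structure of the transcripts, which was not used to choose the genes, set several of the 6 apart. Riox1, Trmt12 and Ddx28 each have 1 exon in GENCODE, as have 280 of the 12339 tested genes that matched it (2.27%). Chst12 has 2 exons, of which 1 is coding (5.62% of genes have 1 coding exon). Pif1 has 12 exons and Nynrin 8. Transcripts ranged from 2262 bases for Ddx28 to 7511 for Nynrin, with a median of 3046 over tested genes. The AU-rich pentamer ATTTA, which is common in mRNAs with a fast decay, occurred 4 times in the 3′ untranslated region of Pif1, 1 time in those of Chst12, Trmt12 and Riox1 and not at all in those of Ddx28 and Nynrin, against a median of 1. The GC content of the transcripts was 45.5% for Trmt12 and 54.7% to 61.4% for the other 5 genes, with a median of 50.5%.

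Of all genes tested, 17.5% were called lower and 18.3% higher with RSL3 against control (35.8% either way), and 8.75% lower and 11.4% higher with SRT1720 plus RSL3 against RSL3 (20.2% either way). With the 6 genes left out, the share that fell with RSL3 was larger where the transcript had fewer exons. With RSL3 against control, 36.1% of 277 genes with 1 exon fell and 22.4% rose, with a median log2 change of -0.23. Of 575 genes with 2 exons 28.3% fell and 21.6% rose (-0.09), of 5651 with 3 to 9 exons 18.3% fell and 18.6% rose (0.01), and of 5830 with 10 or more exons 14.8% fell and 17.9% rose (0.02). Genes that were lower by at least 2 log2 units made up 5.05%, 4.52%, 1.03% and 0.14% of these classes. With SRT1720 plus RSL3 against RSL3 the share that rose was 26.7%, 21.6%, 13.6% and 7.7%, and the share that fell was 10.5%, 10.3%, 7.8% and 9.5%. Genes lower by at least 2 log2 units were also more frequent with fewer exons there, at 3.61%, 1.91%, 0.92% and 0.36%. Large falls were thus not limited to RSL3 against control.

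The 2 comparisons share the RSL3 libraries, so their orders are not independent. With library size only, the share that fell with RSL3 was 47.3%, 41.6%, 36.8% and 37.1%. The classes also differed in level, with a median in control of 6.86, 9.38, 22.28 and 35.39 CPM, in median length (2491, 2615, 2350 and 3797 bases) and in median GC content (53.7%, 52.1%, 50.3% and 50.4%). The part of these properties in the shares was not tested, and no test was run between the classes.

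**Figure D3:**
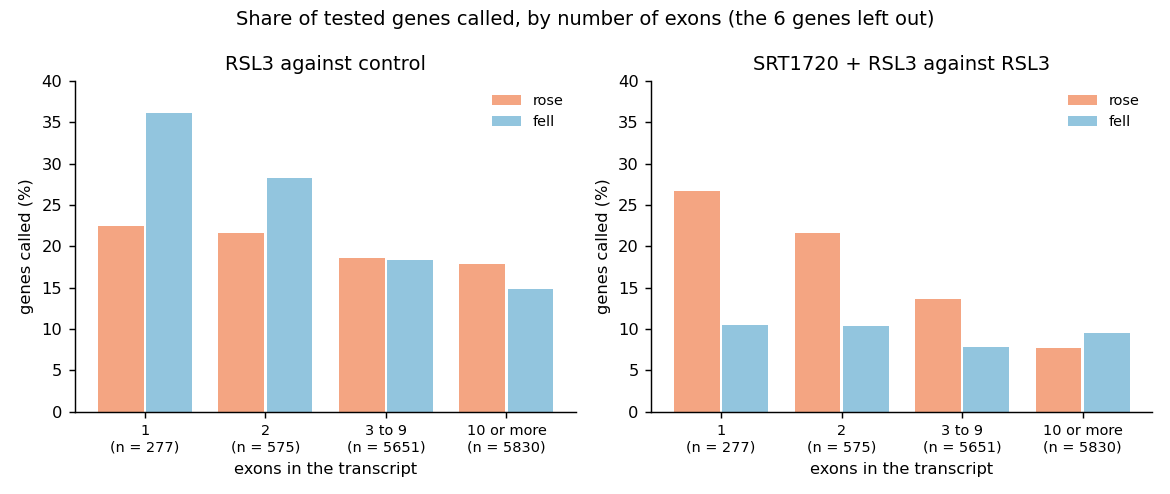
Share of tested genes called higher or lower (vertical axis, percent, edgeR adjusted p under 0.05) by the number of exons in the transcript (horizontal axis), with the 6 genes left out. In RSL3 against control the share that fell goes down from 36.1% of genes with 1 exon to 14.8% of genes with 10 or more, and in SRT1720 plus RSL3 against RSL3 the share that rose goes down from 26.7% to 7.7%.

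Trmt12 acts in a chain of 6 enzymes that build wybutosine. TRMT5 methylates the guanosine, TYW1 forms the tricyclic core, TRMT12 transfers the side chain, TYW3 methylates the core, LCMT2 completes the side chain and TYW5 hydroxylates it. Lcmt2, which like Trmt12 has 1 exon, had 4.34 and 3.69 CPM with SRT1720 and RSL3, 0.841 and 0.843 CPM with RSL3, 8.02 and 9.79 CPM with SRT1720, and 8.93 and 8.89 CPM in control. Its RSL3 libraries were the lowest and those with both compounds were between RSL3 and the rest, the same order as for Trmt12. Lcmt2 fell by 3.39 ± 0.22 log2 units with RSL3 (edgeR adjusted p = 3.98e-06) and rose by 2.25 ± 0.24 with SRT1720 plus RSL3 against RSL3 (edgeR adjusted p = 0.000332). Lcmt2 and Trmt5 were named for having among the smallest p of their list in the second comparison. Lcmt2 was also among the genes nearest to Trmt12 in pattern. Their p-values there, and the order that Lcmt2 shares with Trmt12, follow in part from that choice. The genes named from lists below were chosen in the same way.

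Trmt5, with 5 exons, averaged 10.1 ± 0.238 CPM with SRT1720 and RSL3, 4.55 ± 0.0284 with RSL3, 13.5 ± 0.640 with SRT1720 and 14.7 ± 0.404 in control. It fell by 1.69 ± 0.14 with RSL3 (edgeR adjusted p = 1.65e-05) and rose by 1.15 ± 0.14 against RSL3 when SRT1720 came first (edgeR adjusted p = 0.000681). Tyw3, Tyw1 and Tyw5 were added after their values had been seen, to complete the chain. Tyw3 fell by 1.48 ± 0.18 with RSL3 (edgeR adjusted p = 0.000217) and rose by 0.82 ± 0.19 with both compounds against RSL3 (edgeR adjusted p = 0.0147), a call that ended with DESeq2, with the 4 libraries compared alone and without library 1 (adjusted p = 0.0804 in edgeR) or 2 (0.0681) of both compounds. Tyw1 and Tyw5 were not called in either comparison. With RSL3 they differed from control by -0.05 ± 0.11 (edgeR adjusted p = 0.756) and -0.31 ± 0.13 (0.097), although with library size only both were called lower, at -0.34 and -0.60.

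**Figure D4:**
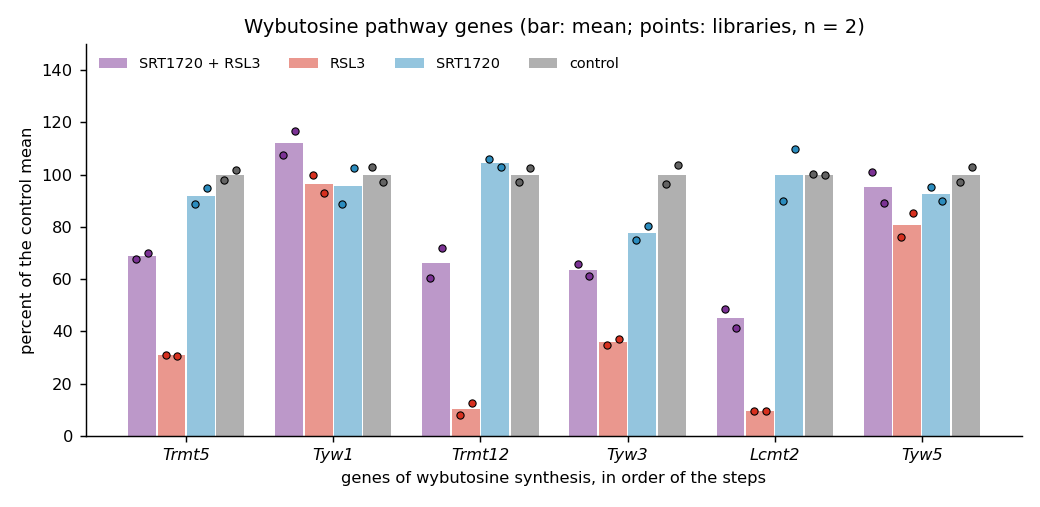
Level of the 6 wybutosine genes as a percent of their mean in control (vertical axis) in the 4 groups, in the order of the steps from left to right. Bars are means and points libraries (n = 2). The RSL3 bars of Trmt12 (10.2%) and Lcmt2 (9.46%) are the lowest, those of Trmt5 (30.9%) and Tyw3 (35.8%) come next, and Tyw1 (96.4%) and Tyw5 (80.5%) stand nearest to control.

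Of the tested genes for tRNA methylation, Trmt12 left out, 10 of 26 fell and 1 rose with RSL3, and 8 rose and 0 fell with SRT1720 plus RSL3 against RSL3 in edgeR. The median log2 changes were -0.30 and 0.22, against 0.01 and -0.01 over all genes tested. With library size only, 19 fell and 0 rose with RSL3, and without SRT1720 plus RSL3 1 or 2 the 8 that rose became 5 or 3. In the fits of the 4 libraries compared, 7 fell and 0 rose with RSL3, and 5 rose and 0 fell with both compounds against RSL3. Besides Lcmt2 and Trmt5 they included Trmt61a, the catalytic subunit of a tRNA adenosine methyltransferase, which fell by 0.60 ± 0.13 with RSL3 (edgeR adjusted p = 0.00669) and rose by 0.72 ± 0.14 against it with both compounds (edgeR adjusted p = 0.00566, but 0.0545 without SRT1720 plus RSL3 2). Trmt10c, a subunit of mitochondrial RNase P, rose by 1.06 ± 0.10 with both compounds against RSL3 (edgeR adjusted p = 0.000245) but missed the threshold with RSL3 against control (-0.30 ± 0.11, edgeR adjusted p = 0.0513).

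Around Ddx28, 12 of 24 genes of mitochondrial ribosome assembly fell and 0 rose with RSL3 (median -0.34), and 10 rose and 1 fell with SRT1720 plus RSL3 against RSL3 (median 0.35). Without SRT1720 plus RSL3 2, 5 rose and 0 fell. Mrm3, which methylates the large mitochondrial rRNA, had 13.9 ± 1.13 CPM with both compounds, 5.90 ± 0.458 with RSL3, 16.7 ± 2.21 with SRT1720 and 20.6 ± 1.94 in control. It fell by 1.80 ± 0.16 with RSL3 (edgeR adjusted p = 2.51e-05) and rose by 1.24 ± 0.16 with both compounds against RSL3 (edgeR adjusted p = 0.000901). Gtpbp10, a GTPase of large subunit assembly, fell by 0.94 ± 0.14 and rose by 1.04 ± 0.14, Ngrn by 0.88 ± 0.16 and 1.11 ± 0.16, and Mettl17, which acts on the small subunit, by 0.98 ± 0.17 and 0.95 ± 0.17 in the same 2 comparisons. In SRT1720 against control 0 of the 24 were called in edgeR. As only 1.31% of all genes tested were called there, nothing is read from this count.

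The families of the other 4 genes had calls in both directions. Over all genes tested, 18.3% rose and 17.5% fell with RSL3, and 11.4% rose and 8.75% fell with both compounds against RSL3. Nothing is read from list counts that lie near these shares. Of 23 genes of chondroitin and dermatan sulfate synthesis beside Chst12, 3 rose and 7 fell with RSL3 (median -0.17), and 4 rose and 3 fell with SRT1720 plus RSL3 against RSL3 (median -0.06). With library size only, 0 rose and 11 fell with RSL3. The 7 calls with both compounds against RSL3 became 2 without RSL3 2, 3 without SRT1720 1 or 2, 3 without SRT1720 plus RSL3 1 and 2 without SRT1720 plus RSL3 2. B3galt6, which adds a galactose of the linker that ties these chains to proteins, fell by 1.12 ± 0.17 with RSL3 (edgeR adjusted p = 0.000633) and rose by 1.12 ± 0.17 with both compounds against RSL3 (edgeR adjusted p = 0.0019), to 10.2 ± 0.578 CPM against 4.71 ± 0.698. B4galt7, which adds another galactose of that linker, rose by 1.29 ± 0.20 in the second comparison (edgeR adjusted p = 0.00256), as did the chain polymerising factor gene Chpf2 (0.45 ± 0.12, edgeR adjusted p = 0.0246). Pxylp1, which removes the phosphate from the linker xylose, fell by 0.61 ± 0.17 (edgeR adjusted p = 0.0299). The calls of Chpf2 and Pxylp1 ended without RSL3 2 (0.31 and -0.40), SRT1720 plus RSL3 1 (0.41 and -0.77) or SRT1720 plus RSL3 2 (0.51 and -0.46), and that of Pxylp1 also without either SRT1720 library (-0.61). In the fit of the 4 libraries compared both were lost (edgeR adjusted p = 0.0673 for Chpf2 and 0.0881 for Pxylp1), and the list had 0 that rose and 6 that fell with RSL3, and 2 that rose and 0 that fell with both compounds against RSL3.

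Of 20 Pif1-like and G-quadruplex helicases, 2 rose and 7 fell with RSL3 (median -0.22), and 2 rose and 1 fell with SRT1720 plus RSL3 against RSL3 (median 0.02). With RSL3, 1 rose and 12 fell with library size only, and 1 rose and 4 fell in the fit of the 4 libraries compared. Recql4 rose by 0.55 ± 0.10 (edgeR adjusted p = 0.00495) and Helq by 0.40 ± 0.11 (edgeR adjusted p = 0.0264), while Wrn fell by 0.54 ± 0.14 (edgeR adjusted p = 0.0248). Ercc2 was at 0.31 ± 0.11 and missed the threshold (edgeR adjusted p = 0.0695). Without SRT1720 plus RSL3 1 or 2 only 1 of the 20 was called, and without RSL3 1 there were 7, Ercc2 among them (0.42). Helq was lost without RSL3 2 (0.34) or SRT1720 plus RSL3 1 (0.38) or 2 (0.44), and Wrn without RSL3 1 (-0.44), SRT1720 1 (-0.54) or SRT1720 plus RSL3 1 (-0.63) or 2 (-0.46). Both were also lost in the fit of the 4 libraries compared (edgeR adjusted p = 0.0718 for Helq and 0.0661 for Wrn).

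Of 23 protein hydroxylases that use 2-oxoglutarate, the class of RIOX1, 8 rose and 4 fell with RSL3 (median 0.06), and 5 rose and 6 fell with both compounds against RSL3 (median -0.18). With library size only, 6 rose and 9 fell with RSL3. Without SRT1720 plus RSL3 1 the second comparison had 1 that rose and 6 that fell, and without its library 2 it had 0 and 5. Several of these hydroxylases went the other way from Riox1. Plod2, a collagen lysyl hydroxylase, had 73.7 ± 1.54 CPM with both compounds, 299.2 ± 36.9 with RSL3, 66.0 ± 0.301 with SRT1720 and 66.3 ± 7.47 in control. It rose by 2.17 ± 0.12 with RSL3 (edgeR adjusted p = 1.3e-06) and fell by 2.02 ± 0.12 with both compounds against RSL3 (edgeR adjusted p = 1.74e-05). The oxygen sensor gene Egln1 and the collagen prolyl hydroxylase genes P4ha1 and P4ha2 rose by 0.96 ± 0.10, 1.72 ± 0.09 and 1.61 ± 0.10 with RSL3 and fell by 1.42 ± 0.11, 1.04 ± 0.09 and 0.93 ± 0.10 with both compounds against RSL3.

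Of 10 genes for NYN and PIN domain ribonucleases beside Nynrin, 1 rose and 2 fell with RSL3, and 0 rose and 1 fell with both compounds against RSL3 (medians -0.07 and -0.10). With library size only 6 of the 10 were called lower with RSL3, and without control 1, SRT1720 1 or SRT1720 2, with DESeq2 or in the fit of the 4 libraries compared the count was 1 higher and 0 lower. Khnyn, the gene most related to Nynrin among these, rose by 0.72 ± 0.12 with RSL3 (edgeR adjusted p = 0.00145) and fell by 0.51 ± 0.12 with both compounds against RSL3 (edgeR adjusted p = 0.0181), a call lost without RSL3 1 (-0.39) or SRT1720 plus RSL3 2 (-0.40) and in the fit of the 4 libraries compared (edgeR adjusted p = 0.0562). Zc3h12a, Smg6 and Smg5 differed between those groups by -0.34 ± 0.13, -0.28 ± 0.12 and -0.26 ± 0.15 and were not called, except Smg5 without RSL3 1 (-0.44).

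Most mRNAs known from textbooks to turn over fast were higher with RSL3 than in control. Of 32 of them, 22 rose and 3 fell with RSL3, where 18.3% of all genes tested rose and 17.5% fell. The median was 0.95 against 0.01 over all genes. Synthesis and decay were not measured apart, so this list does not tell how long the mRNAs of the 6 genes last. With SRT1720 plus RSL3 against RSL3, 6 rose and 9 fell (median -0.28), where 11.4% of all genes tested rose and 8.75% fell. Zfp36, whose protein binds AU-rich elements, had 72.6 ± 2.15 CPM with both compounds, 319.2 ± 9.43 with RSL3, 20.6 ± 2.52 with SRT1720 and 17.3 ± 0.528 in control. It rose by 4.21 ± 0.12 with RSL3 (edgeR adjusted p = 2.81e-08) and fell by 2.14 ± 0.11 with both compounds against RSL3 (edgeR adjusted p = 1.13e-05). Klf4, a transcription factor gene, rose by 3.75 ± 0.10 and fell by 1.13 ± 0.09 in the same comparisons.

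Tnfaip3, an inhibitor of NF-kB, was highest with both compounds and lowest with RSL3, as was Riox1. It averaged 63.0 ± 4.12 CPM with both compounds, 14.1 ± 3.06 with RSL3, 37.5 ± 0.0577 with SRT1720 and 36.8 ± 6.80 in control. The log2 change was -1.39 ± 0.17 with RSL3 (edgeR adjusted p = 0.00021) and 2.16 ± 0.17 with both compounds against RSL3 (edgeR adjusted p = 9.38e-05). Plk2, a kinase gene, rose in both, by 0.68 ± 0.11 and 1.39 ± 0.11.

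Likeness between genes was measured as the distance between the 4 group means on the log2 scale, each gene centred on its own mean, among 9326 genes with at least 5 CPM on average. The 6 genes were compared with each other and, apart from that, with genes outside the 6. These are descriptions over 4 groups, which share the 8 libraries. Among the 6 genes, Chst12 and Pif1 were the closest (0.301) and Ddx28 and Trmt12 next (0.429), and Riox1 and Pif1 the farthest apart (2.39). Outside the 6, the nearest to Riox1 were Ankrd1 (0.211), Zbtb9 (0.249) and Pars2 (0.296), nearest to Ddx28 H2ac24 (0.431), Lcmt2 (0.438) and Exoc8 (0.471), and nearest to Trmt12 Lcmt2 (0.440), H2ac24 (0.444) and Exoc8 (0.839). Ankrd1 averaged 105.0 CPM with both compounds, 23.8 with RSL3, 85.9 with SRT1720 and 77.7 in control, and the histone gene H2ac24 72.9, 13.2, 119.0 and 162.8 CPM.

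Also outside the 6, the nearest to Chst12 were Aspm (0.648), Haspin (0.766) and Pcdh18 (0.829), nearest to Pif1 Ifit1 (0.667), Aspm (0.751) and Haspin (0.786), and nearest to Nynrin Pcdh18 (0.426), Wdr6 (0.655) and Jade2 (0.661). The mitotic spindle gene Aspm averaged 10.5 CPM with both compounds, 7.37 with RSL3, 35.1 with SRT1720 and 46.4 in control, and the protocadherin gene Pcdh18 12.1, 13.9, 50.9 and 67.3 CPM. Of the 12 different genes so named, 4 have 1 exon (Haspin, H2ac24, Lcmt2 and Exoc8), against 2.27% of tested genes matched in GENCODE. The 12 were chosen for a pattern like that of the 6 genes, and large falls with RSL3 were more frequent with fewer exons. Nothing is read from this count. When Pearson's r over the 8 libraries was used as the measure, of all these neighbours in pattern only Exoc8, for Ddx28, was named again, so the names depend on the measure.

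Reads of a member could be shared with a gene that overlaps it, and the strand setting of the counting is not given in the sources used here. Ddx28 and the tRNA dihydrouridine synthase gene Dus2, on opposite strands, overlap by 9 bases, and Dus2 averaged 10.6 ± 0.149 CPM with both compounds, 8.89 ± 0.464 with RSL3, 10.6 ± 2.12 with SRT1720 and 10.7 ± 0.751 in control. It was not called with RSL3 against control (-0.27 ± 0.16, edgeR adjusted p = 0.232), except with library size only (-0.56). Heatr4 spans the whole of Riox1 on the other strand and had at most 9 counts in a library.

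The genes overlapping or beside the 6 that could be tested were Gm52800, Dus2, Nfatc3, Tmem65, Rnf139, Numb, Acot2, Plekho2, Rbpms2, Nfatc4 and Cbln3. With RSL3 against control 2 of them were called lower and 2 higher, where 17.5% of all genes tested were lower and 18.3% higher. Nothing is read from these counts. Beside Riox1, Numb rose by 0.74 ± 0.11 with RSL3 (edgeR adjusted p = 0.000506) and Acot2, an acyl-CoA thioesterase gene, rose by 1.19 ± 0.15 with RSL3 and by 1.39 ± 0.14 more with both compounds against RSL3. Beside Trmt12, Rnf139 fell by 0.77 ± 0.11 with RSL3 (edgeR adjusted p = 0.00061), and Tmem65 fell by 0.52 ± 0.13 with both compounds against RSL3 (edgeR adjusted p = 0.0213), a call that ended in 6 of 16 alternatives, among them without RSL3 2 (-0.37), SRT1720 1 or 2 (-0.52) and SRT1720 plus RSL3 1 (-0.59) or 2 (-0.45). Beside Pif1, Plekho2 fell by 0.40 ± 0.09 with RSL3 (edgeR adjusted p = 0.00702) and rose by 0.90 ± 0.09 with both compounds against RSL3 (edgeR adjusted p = 0.000286). Rbpms2 (beside Pif1), Nfatc3 (beside Ddx28) and Cbln3 (beside Nynrin) were not called in either comparison, although Rbpms2 was called higher with both compounds against RSL3 with a crossed replicate block (0.35, edgeR adjusted p = 0.027) and without RSL3 1 (0.60), and Cbln3 was called lower with RSL3 without RSL3 1 (-2.29). Gm4869 and Dpep2 had too few counts to test, at most 12 and 1 in a library. Gm52800, beside Chst12, fell by 0.82 ± 0.24 with both compounds against RSL3 (edgeR adjusted p = 0.0366), a call that ended without RSL3 2 (-0.56) and without SRT1720 plus RSL3 1 (-1.09) or 2 (-0.58).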

How the data were processed

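Expected counts, which are estimated and need not be whole numbers, were deposited by the authors for 17910 genes with NCBI Gene IDs. Between 76.6% and 77.7% of the values in a library were whole. How reads were aligned and counted, against which build and with which filters, is not given in the sources used here. Extraction text in the labels names human HT1080 cells and lung homogenates too, which are not among these samples. Columns were matched by the library names in the labels, a bare name being replicate 1 and a suffixed name replicate 2. No columns of other samples were present (0).

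Counts were rounded and tested in edgeR 4.0.16 (R 4.3.3, limma 3.58.1) with TMM scaling, filterByExpr and a quasi-likelihood model over all 8 libraries with a mean per group. It had 4 residual and 5.73 prior degrees of freedom and a coefficient of variation of 10.6%. Tests are two-sided with Benjamini-Hochberg adjustment over 12618 genes. The code was run on simulated counts with the same spread for all genes and changes in a small set of genes in the RSL3 group. The spread and the share of changed genes differ in these data, so that run does not tell how the model does on them. SE is the log2 fold change over the square root of F. Alternatives were RLE factors, library size only, no filter, replicate blocks, limma-voom, DESeq2 1.42.0, the 4 libraries compared and each library left out. The share of the fall was also taken on the log2 scale, and likeness by Pearson's r.

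Named genes were the 6 members, the 3 most like each (members, predicted loci and Zfp genes left out), genes that overlap or lie next to them, and up to 4 genes of each list with the smallest p in SRT1720 plus RSL3 against RSL3. Members and lists were chosen with earlier results of these data known. Exon structure comes from GENCODE on GRCm38, matched by NCBI Gene ID for 97.8% of tested genes (the 6 genes are left out of the exon classes), and promoters and gene order from RefSeq on GRCm38.p6. Gaps and overlaps between genes are from the RefSeq annotation, which may differ from the one behind the counts. The strands of neighbouring genes are from GENCODE.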

Additional observations from a re-analysis of the deposited data

Results flagged for a closer look

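In Chst12 and Ddx28 both libraries with SRT1720 and RSL3 were above both RSL3 libraries, while both SRT1720 libraries were below both control libraries. The lower level without RSL3 passed no test (edgeR adjusted p = 0.347 for Chst12 and 0.702 for Ddx28), and 23.1% of all genes had SRT1720 libraries below control in this way. For Chst12 the effect of SRT1720 with RSL3 minus its effect without RSL3 was 0.94 on the log2 scale, made of 0.58 with RSL3 and -0.36 without. For Ddx28 it was 2.31, made of 2.15 with RSL3 and -0.16 without. The difference itself was not tested, since it draws on a comparison that chose the genes.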

How the results depend on the processing

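Among the tests of the 6 genes in SRT1720 against control and SRT1720 plus RSL3 against SRT1720, the calls that ended are given with those results. The number of genes called was 4511 (RSL3 against control), 2546 (SRT1720 plus RSL3 against RSL3), 165 (SRT1720 against control) and 2692 (SRT1720 plus RSL3 against SRT1720). In fits of only the 4 libraries compared it was 2931, 1578, 286 and 4682, and for SRT1720 against control 500 with a crossed replicate block and 398 with DESeq2. Leaving out a library at a time gave 3330 to 4519, 846 to 3482 (846 without SRT1720 plus RSL3 2, 1091 without its library 1), 9 to 511 (10 and 9 without SRT1720 1 and 2, 30 without control 2, 56 and 60 without SRT1720 plus RSL3 1 and 2, 502 and 511 without RSL3 1 and 2) and 1041 to 3542 (1041 and 1263 without SRT1720 1 and 2, 1154 and 1233 without SRT1720 plus RSL3 1 and 2). The cause was not tested.

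The replicate numbers did not run the same way in all groups, and the main model has no replicate term. Over 7062 genes the deviations of same-numbered libraries had r = 0.69 between RSL3 and control. It was -0.40 between SRT1720 plus RSL3 and RSL3, -0.29 between SRT1720 plus RSL3 and control, and near 0 in the other pairs of groups. Whether libraries are paired, with the numbers of SRT1720 plus RSL3 exchanged, was not tested. With the replicate block 4570, 2577, 203 and 2713 genes were called. Of the tests of the 6 genes, that of Riox1 in SRT1720 plus RSL3 against SRT1720 was lost with it (0.385, adjusted p = 0.0516 in edgeR). With the crossed block, in which the numbers of SRT1720 plus RSL3 are exchanged, 5197, 3459, 500 and 3505 genes were called. With library size only the medians of all genes moved by -0.28, 0.06, -0.02 and -0.21, and the called genes were 1220 higher and 4675 lower for RSL3 against control (2308 and 2203 with TMM) and 894 higher and 3066 lower for SRT1720 plus RSL3 against SRT1720 (1549 and 1143 with TMM).

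Some values changed sign, none of them past the threshold. Pif1 in SRT1720 against control was -0.031 without SRT1720 1 (-0.031 to 0.149 over the left-out libraries). In RSL3 against control these were Nfatc3 without control 2 (0.044) or RSL3 1 (0.053; range -0.139 to 0.053), Nfatc4 with library size only (-0.059), and Rbpms2 with library size only (-0.161) or without RSL3 1 (-0.144; range -0.144 to 0.334). In SRT1720 plus RSL3 against RSL3 they were Numb without RSL3 1 (-0.064) or SRT1720 plus RSL3 1 (-0.024; range -0.064 to 0.097), and Cbln3 without RSL3 2 (0; range 0 to 1.847). With 14 and 22 counts, the RSL3 level of Trmt12 is the least precise of the 6 genes.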

Other observations

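Nfatc4, which encodes a calcineurin-regulated transcription factor, is the gene next to Nynrin on the left in RefSeq, 20171 bases away. In GENCODE both genes are on the same strand. Its values with SRT1720 were singled out after they had been seen. It had 12.1 and 13.3 CPM with SRT1720 and RSL3, 29.0 and 27.2 CPM with RSL3, 14.8 and 15.5 CPM with SRT1720, and 23.0 and 25.2 CPM in control. The 4 libraries with SRT1720 were all below the 4 without it. Nfatc4 fell by 0.67 ± 0.11 on the log2 scale with SRT1720 against control (edgeR adjusted p = 0.0245), a comparison in which Nynrin fell too. Over the 16 alternatives the adjusted p ran from 0.0052 to 0.273, and the call ended without control 2 (-0.60), SRT1720 1 (-0.63), SRT1720 2 (-0.70), SRT1720 plus RSL3 1 or SRT1720 plus RSL3 2 (-0.67 each). With SRT1720 plus RSL3 against RSL3, Nfatc4 fell by 1.15 ± 0.12 (edgeR adjusted p = 0.000283), where Nynrin differed by -0.31 ± 0.21. With RSL3 against control Nfatc4 was not called (0.22 ± 0.11, edgeR adjusted p = 0.149), while Nynrin was at 17.5% of control.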
